A study of Drosophila melanogaster with 20 samples.

Results

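Eye discs that expressed wild-type human proinsulin were compared with discs that carried no transgene, over 12 of the 20 arrays of the series. Members were chosen by line as the labels give it: 8 arrays of the transgenic lines WT-6 and WT-24, and 4 arrays of non-transgenic larvae. Tissue was the eye imaginal disc of Drosophila melanogaster larvae of the third instar, the epithelial sheet that becomes the adult compound eye. WT-6 and WT-24 carried GMR-GAL4 and UAS-hINSWT, with the transgene hemizygous, and the non-transgenic discs are also labelled GMR-GAL4, so the driver was shared by all groups; the flies were kept at 25 degrees Celsius. Males and females were sampled separately, with 2 arrays for each line and sex. The other 8 arrays of the series carried C96Y proinsulin, a form with a cysteine replaced (lines Mut-101 and Mut-1), and their values are given only beside a result they bear on. The labels give each proinsulin line, and the controls, as a single genotype, so a difference in genetic background and an effect of the transgene cannot be told apart. The level of the human transgene was not analysed here, and nothing says how many discs or larvae went into an array. Since separate cultures are not described, p-values measure the spread between these arrays only.

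Proinsulin is the secretory precursor of insulin. It enters the endoplasmic reticulum (ER), folds there with the help of chaperones such as BiP and of disulphide-forming enzymes, and leaves in COPII vesicles. When client proteins overload this compartment, the sensors Ire1, PERK (PEK in flies) and Atf6 start the unfolded protein response (UPR), which raises transcripts of chaperones and of ER-associated degradation. GMR-GAL4 drives UAS transgenes in the differentiating cells behind the morphogenetic furrow of the eye disc, so that the rest of the disc dilutes any change in those cells, and fewer cells of a type and less RNA per cell cannot be told apart in such whole-disc samples.

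Values are MAS5 intensities on a linear scale, and differences are log2 differences of wild-type proinsulin minus non-transgenic, adjusted for sex, with standard errors (SE) from limma. Array means were 1199 to 1236 and array medians 212 to 245. The MAS5 settings are not given, so whether the means were set alike by scaling is not known. Arrays of the same line and sex correlated at 0.983 to 0.991 over the 10262 probe sets tested. All 10 eye disc marker genes were on the array, and their summed intensity was 40468 to 41920 in non-transgenic and 38336 to 44389 in wild-type arrays. Transcripts of other tissues were present and uneven. The ring gland gene spok, an enzyme of ecdysone synthesis, exceeded 1000 intensity units in 6 arrays: 3 of the 4 non-transgenic (male replicates 1 and 2, female replicate 1) and 3 of the 8 wild-type (WT-6 female replicate 1, WT-24 male replicate 2, WT-24 female replicate 2). The fat body genes Lsp2, a larval storage protein, and Fbp1, fat body protein 1, were high in non-transgenic male replicate 2 (12077 and 9394) and WT-24 female replicate 1 (7750 and 5992). The summed ring gland markers ranged from 3853 to 13342 in non-transgenic and from 3870 to 16363 in wild-type arrays, and the summed fat body markers from 894 to 34959 and from 1124 to 23045. None of the 5 tested members of either list was called between the groups, beside 0.00974% of all probe sets, with spok at -1.69 ± 1.80 (SE; limma adjusted p = 0.877). The main comparison had 0 calls without the 2 fat body arrays, and without the 6 ring gland arrays it had 1, which was higher and was not the call made with all 12.

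**Figure D1:**
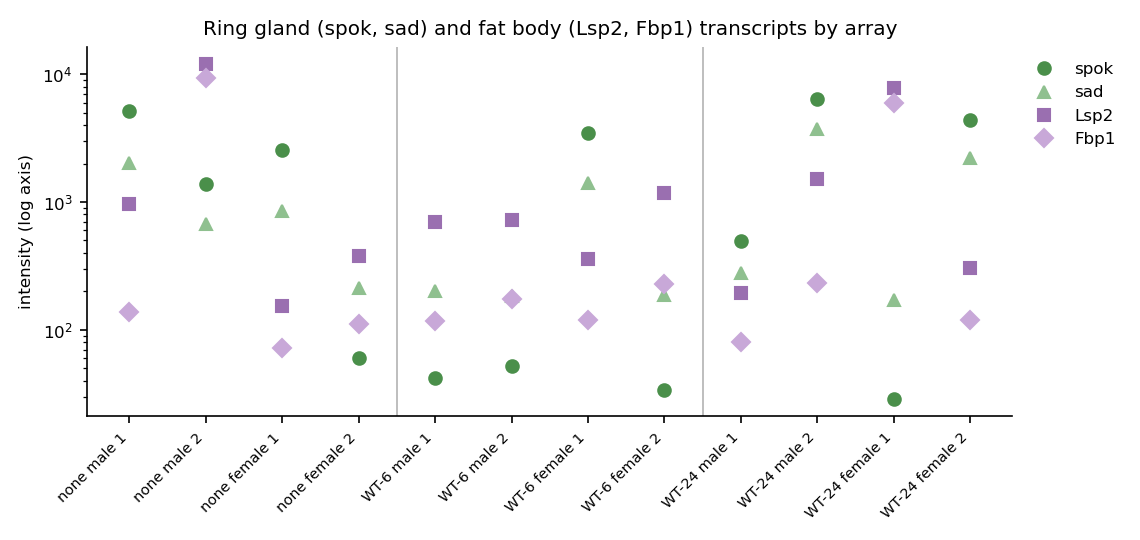
Intensity (log axis) of 2 ring gland genes (spok, sad) and 2 fat body genes (Lsp2, Fbp1) in each of the 12 arrays, where none means no transgene. Symbols stand for genes; spok passes 1000 in 6 arrays spread over the 3 lines, and Fbp1 reaches 9394 and 5992 in 2 arrays.

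Between wild-type proinsulin and non-transgenic discs 1 transcript was called. Arpc1, a subunit of the Arp2/3 complex that nucleates branched actin filaments, was the sole call at an adjusted p under 0.05 among 10262 probe sets (0.00974%), and it was lower with proinsulin. Its intensity in non-transgenic discs was 1927 and 1665 in males and 2480 and 1566 in females. In WT-6 it was 985 and 1128 in males and 1093 and 1089 in females, and in WT-24 it was 1097 and 1015 in males and 1107 and 989 in females. All 8 wild-type arrays lay below all 4 non-transgenic arrays, and the non-transgenic arrays varied more among themselves. The means were 1063 ± 57.2 (SD, n = 8) and 1910 ± 410 (SD, n = 4). On the log2 scale the difference was -0.82 ± 0.101 (SE; adjusted p = 0.0278 by limma), or 1.77-fold lower. The C96Y arrays, which were not used in the test, had Arpc1 between 1177 and 1539. They lay below every non-transgenic array and above every wild-type array. They are set against the same 4 non-transgenic arrays, so this is a level and not separate support. A deviation of those 4 arrays would enter both comparisons. Other measured subunits of the same complex gave differences of -0.02 (Arpc2), 0.02 (Arpc3A), 0.14 (Arpc3B), -0.00 (Arpc4) and 0.03 (Arpc5), and none was called. The Arpc1 call was made in 12 of 30 alternative settings, with a log2 difference of -0.93 to -0.51 and an adjusted p of 0.00550 to 0.512 over them. It was lost without non-transgenic male replicate 1 (0.0559), without any 1 of the 8 wild-type arrays (0.0566 to 0.0966) and without the 2 fat body arrays (0.123). Without the 6 ring gland arrays, which leaves 1 non-transgenic array, the difference was -0.51 (adjusted p = 0.401).

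Across all probe sets the comparison was narrow. The median log2 difference was -0.00, 65 probe sets differed by more than 1.5-fold and 14 by more than 2-fold, and the 95% interval of 9690 probe sets (94.4%) lay within 1.5-fold in either direction. At an unadjusted p under 0.05 there were 580 probe sets (5.65%), of which 284 were higher (2.77%) and 296 lower (2.88%). Groups did not overlap in 29 probe sets (0.283%), 15 higher (0.146%) and 14 lower (0.136%), and 22 of them have a gene name. With all 20 arrays in the fit, which takes its error from the spread within each line and sex, 11 probe sets were called in place of 1, and the 7 with a gene name were vis, GstT3, Zip102B, fuss, Arpc1, pins and ssx.

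**Figure D2:**
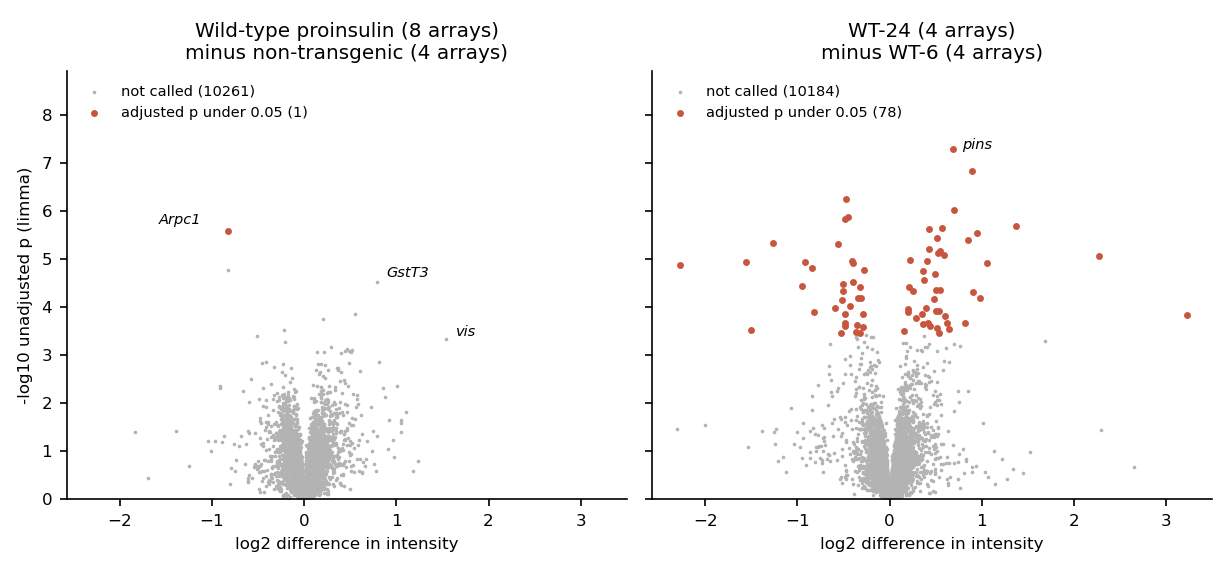
Log2 difference in intensity against -log10 of the unadjusted limma p for the 10262 probe sets, for wild-type proinsulin minus non-transgenic (left) and for WT-24 minus WT-6 (right). Red points have an adjusted p under 0.05: 1 on the left and 78 on the right.

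No transcript passed the test as higher with proinsulin. The 5 named genes of smallest p in that direction were GstT3, nemy, GlcAT-I, vis and Roe1, and their values follow as measurements that missed the threshold. GstT3, a theta-class glutathione S-transferase, was 555 and 647 in non-transgenic males and 828 and 964 in non-transgenic females, against 742, 810, 949 and 789 in wild-type males and 1826, 2129, 1930 and 1954 in wild-type females. Within each sex every wild-type array was above both non-transgenic arrays, with the wider gap in females, and the difference was 0.79 ± 0.123 (SE; limma adjusted p = 0.103). Nemy, a cytochrome b561 family gene known for a role in fly memory, ranged from 1638 to 1939 in non-transgenic and from 1999 to 3411 in wild-type arrays. The groups did not overlap, and the difference was 0.55 ± 0.101 (limma adjusted p = 0.370). GlcAT-I, which adds glucuronic acid to the linker of glycosaminoglycans, ranged from 2460 to 2654 and from 2736 to 3123, a difference of 0.21 ± 0.0391 (limma adjusted p = 0.376). Roe1, the mitochondrial GrpE-like exchange factor of Hsp70, ranged from 863 to 1065 and from 1069 to 1209, a difference of 0.29 ± 0.0634 (limma adjusted p = 0.521). GlcAT-I and Roe1 are small differences between groups that did not overlap, as was so for 0.283% of all probe sets. These genes were named for their small p, so the lack of overlap is not separate support.

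The homeobox gene vis had the largest of these differences and the widest spread among controls. It was 301 and 183 in non-transgenic males and 84 and 54 in non-transgenic females, against 324 to 433 over the 8 wild-type arrays. The wild-type arrays were all higher and close to each other, while the non-transgenic arrays spanned a range of several fold, and the difference of 1.54 ± 0.325 (SE) had a limma adjusted p of 0.521. Without the 6 ring gland arrays, where the only control left is non-transgenic female replicate 2, the lowest of the 4 for this gene, vis differed by 2.94 (adjusted p = 0.00435). In the C96Y lines, vis was 369 to 444 in Mut-101 and 67 to 75 in Mut-1, so these 2 lines lay at the levels of the wild-type lines and of the lowest controls. Its neighbour and close copy achi differed by 0.01 (unadjusted p = 0.874); whether a probe set for one of them also detects the other was not tested. The zinc transporter gene Zip102B (0.46 ± 0.104) and the Ski/Sno family gene fuss (0.45 ± 0.102), both on chromosome 4, had a limma adjusted p of 0.521 each, as had ssx (-0.21 ± 0.0460), the sister gene of Sex-lethal. The spindle orientation gene pins stood at -0.34 ± 0.177 (limma adjusted p = 0.835), a value that rested on line WT-6, since it was 0.00 with that line left out.

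Genes of the secretory pathway were not called in any direction. BiP is encoded by Hsc70-3, the main Hsp70 chaperone of the ER lumen. Its intensity was 14622 and 14732 in non-transgenic males and 15246 and 15492 in non-transgenic females. In wild-type discs it was 14041, 15614, 15374 and 15129 in males and 15122, 14683, 14892 and 14987 in females. The wild-type range held the whole non-transgenic range, and the difference was -0.00 ± 0.0261 (SE; limma adjusted p = 0.982), with a 95% interval of -0.06 to 0.05. C96Y arrays had Hsc70-3 at 15632 to 17048, above every one of the 12 arrays compared here (14041 to 15614), but not by much. Whether this probe set responds in proportion at such high intensities was not tested, so the narrow interval is one of intensity. Gp93, the ER form of Hsp90, differed by -0.05 (95% interval -0.16 to 0.06), and Sil1, a nucleotide exchange factor of BiP, by -0.06 (-0.19 to 0.07). Sil1 ranged from 1496 to 1790 in non-transgenic, from 1460 to 1717 in wild-type and from 2406 to 4414 in C96Y arrays.

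Of 26 tested ER chaperones and folding enzymes 0 were called, 8 differences were positive and 18 negative, and the median was -0.02, beside -0.00 over all probe sets. The members of smallest p were ERp44, a thiol retention factor (-0.12 ± 0.0372), GCS2alpha, a glucosidase subunit that trims N-glycans (-0.10 ± 0.0369), and CG14715 (0.05 ± 0.0254). All 26 intervals lay within 1.5-fold. Of 15 UPR sensors and genes of the PERK-ATF4 branch 0 were called, with a median of -0.05. PEK differed by -0.07 (95% interval -0.18 to 0.04), Ire1 by -0.08 (-0.21 to 0.05), Atf6 by -0.03 (-0.17 to 0.10) and crc, the fly ATF4, by 0.01 (-0.03 to 0.04). Asparagine synthetase AsnS, known as a target of ATF4 in mammals, was 399 to 542 in non-transgenic and 325 to 470 in wild-type arrays, and it differed by -0.25 ± 0.0846 (limma adjusted p = 0.818). In C96Y arrays AsnS was 749 to 1028. All 15 intervals of that list lay within 1.5-fold.

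The remaining lists of the pathway gave the same counts. None of 16 genes of ER-associated degradation was called (median -0.03), with Hrd3, a partner of the Hrd1 ubiquitin ligase, at -0.17 ± 0.0726 and TER94, the p97 ATPase, at -0.06 ± 0.0251. None of 26 genes of translocation, signal peptidase and glycosylation was called (median -0.01), with Sec63 at -0.07 ± 0.0346. None of 22 COPI and COPII genes was called (median -0.02), with the collagen export factor Tango1 at -0.12 ± 0.0687. Over these 105 tested genes together, 0 passed the test and 5 had an unadjusted p under 0.05 (4.76%, beside 5.65% of all probe sets). Of those, 0 were higher and 5 lower, beside 2.77% higher and 2.88% lower over all probe sets. Within 1.5-fold lay 104 of the 105 intervals. The exception, chosen after its values were seen, was zetaCOP, a COPI coat subunit, at 0.25 with an interval of -0.16 to 0.66.

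**Figure D3:**
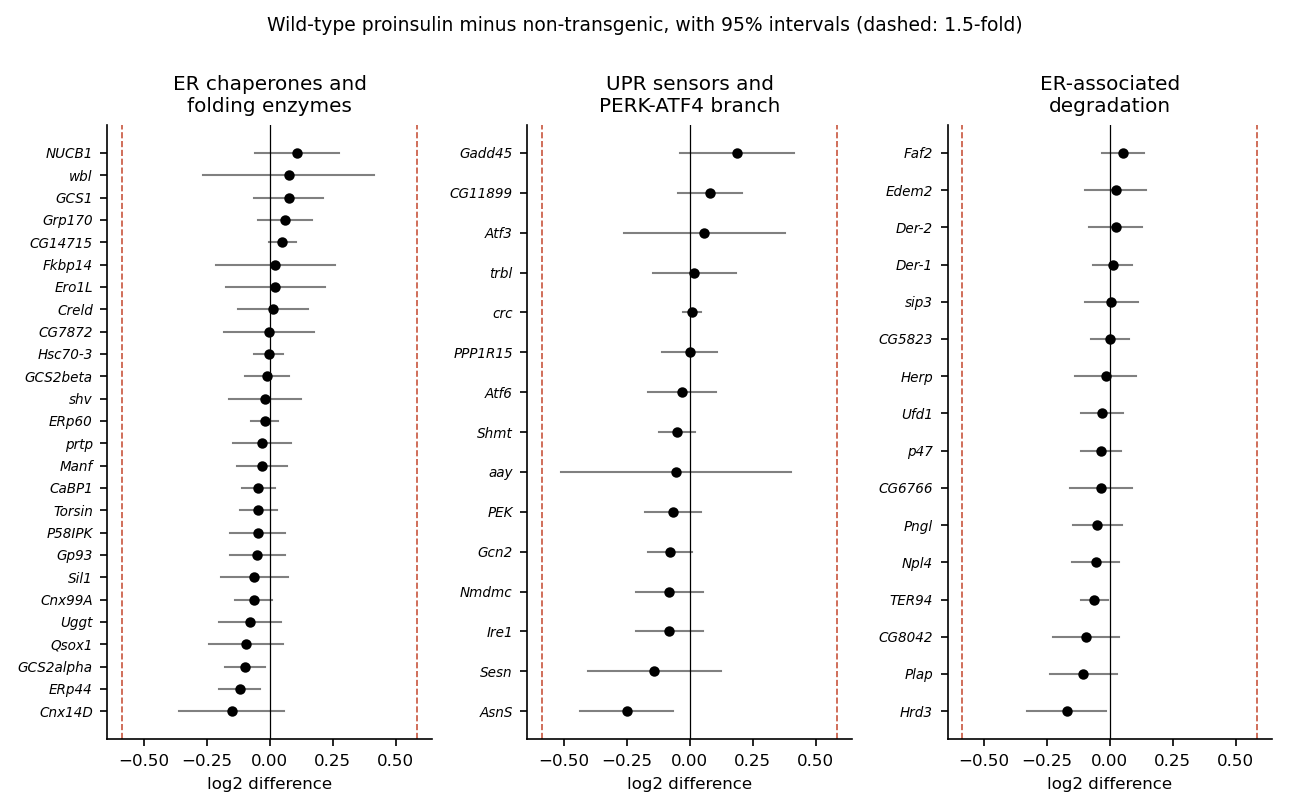
Log2 difference of wild-type proinsulin minus non-transgenic (points) with 95% intervals (lines) for the tested ER chaperones and folding enzymes (26), UPR genes (15) and ER-associated degradation genes (16). Dashed lines mark 1.5-fold; every interval lies between them, and Hsc70-3 sits at -0.00.

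Genes that respond to damage or cell death had 0 calls, a count to be read beside the 0.00974% of all probe sets called. At an unadjusted p under 0.05 there were 1 of 19 apoptosis, 1 of 16 JNK and regeneration, 1 of 14 heat shock, 4 of 35 glutathione and redox and 0 of 9 immune genes, beside 5.65% of all probe sets. Of 19 tested apoptosis genes 0 were called (median 0.02), with grnd, a TNF receptor, at 0.17 ± 0.0732 and the caspase gene Strica at 0.19 ± 0.0886. Of 16 JNK targets and regeneration genes 0 were called (median 0.05), with the matrix metalloprotease Mmp2 at 0.23 ± 0.0730 and the growth factor receptor Pvr at -0.17 ± 0.0856; a second probe set of Mmp2, of low intensity, stood at -0.07. Of 14 heat shock proteins 0 were called (median -0.01), with Hsp68 at -0.15 ± 0.0662. Of 35 glutathione and redox enzymes 0 were called (median -0.03), with GstT3 as given above, GstE5 at -0.32 ± 0.0816 and GstT1 at 0.14 ± 0.0546. Of 9 antimicrobial and immune genes 0 were called (median -0.03), and 4 of their intervals reached beyond 1.5-fold, so that differences of that size were not resolved for these genes.

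Insulin acts through a receptor that is conserved between mammals and flies, and so the insulin and TOR genes were also read. Of 18 tested 0 were called, 9 were positive and 9 negative, and the median was 0.01. Sdr, a secreted decoy of the insulin receptor, ranged from 999 to 1279 in non-transgenic and from 1223 to 1597 in wild-type arrays, with an overlap between them. It differed by 0.24 ± 0.0837 (SE; limma adjusted p = 0.818), and the kinase gene Pdk1, which acts below PI3K, by 0.21 ± 0.0767 (limma adjusted p = 0.835). All 18 intervals lay within 1.5-fold.

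For developmental programmes of the disc the medians and intervals are given, since 0 calls is the count that lists of this size share with nearly all probe sets (0.00974% called). Among 32 genes of photoreceptor specification and EGFR signalling 0 were called (median 0.02), with lz, a Runx factor of cone cell and R7 fate, at 0.09 ± 0.0387. Among 18 genes of retinal determination and the furrow 0 were called (median 0.00), with hh at 0.04 ± 0.0345, and among 21 cell cycle and replication genes 0 were called (median -0.01), with CycE at 0.07 ± 0.0461. All intervals of these 3 lists lay within 1.5-fold. These values pool the sexes. In the test of sex dependence given further on, 2 of 32, 2 of 18 and 7 of 21 of these genes had an unadjusted p under 0.05. The 21 ecdysone response genes had 0 calls and a median of -0.00, with ImpL1 at -0.91 ± 0.263 (limma adjusted p = 0.818). That median pools the sexes: 10 of the 21 had an unadjusted p under 0.05 in the test of sex dependence given further on, and 4 of the 21 intervals reached beyond 1.5-fold. Among 15 polarity and spindle genes, 17 zinc transport and metallothionein genes, 13 dosage and sex determination genes and 11 eye colour genes 0 were called, with medians of -0.00, 0.00, 0.03 and -0.01. In the same order 14, 13, 12 and 11 of their intervals lay within 1.5-fold, and differences of that size were not resolved for the rest. Of 17 actin nucleation genes Arpc1 alone was called (median -0.00), and 16 of the 17 intervals lay within 1.5-fold.

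Housekeeping complexes shifted by little. In the proteasome list 25 of 26 differences were negative and 1 positive, with 0 calls, a median of -0.03 and a range of -0.09 to 0.01. In the respiratory chain and ATP synthase list 44 of 56 were negative, with 0 calls and a median of -0.03; ox, a subunit of complex III, stood at -0.16 ± 0.0434 and ND-75, of complex I, at -0.11 ± 0.0333. Of 38 cytosolic ribosomal proteins 23 were negative, with 0 calls and a median of -0.00. Genes of 1 complex share their samples and are not independent, so the counts of signs are descriptions.

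Markers of other cell types had 0 calls in all of their lists, a count to be read beside the 0.00974% of all probe sets called. The median difference was -0.27 over 11 muscle genes, of which 10 were negative, with summed intensities of 6112 to 19056 in non-transgenic and 6548 to 17350 in wild-type arrays. Over 7 salivary gland genes the median was 0.22, with sums of 7986 to 24559 and 7466 to 32209. Over 8 neuroblast and brain genes it was 0.08, with sums of 6783 to 7960 and 7130 to 8718; the neuroblast factor ase was 226 to 301 in non-transgenic and 254 to 392 in wild-type arrays, a difference of 0.34 ± 0.0995 (limma adjusted p = 0.818). Medians were -0.20 for fat body (5 genes), -0.13 for ring gland (5), -0.02 for haemocytes (14), 0.01 for glia (10), 0.03 for the antennal disc (7), 0.02 for trachea (5), -0.02 for eye disc (10) and -0.07 for cuticle (40). The ranges of the groups overlapped in every summed list. Intervals within 1.5-fold numbered 0 of 5 for fat body, 2 of 5 for ring gland and 2 of 7 for salivary gland. They numbered 3 of 11 for muscle, 9 of 14 for haemocytes and 28 of 40 for cuticle. Differences of that size were not resolved for the other genes of these lists. In the remaining marker lists all intervals lay within 1.5-fold. The part of these tissues in the results was not tested beyond the settings that leave out arrays or adjust for spok and Lsp2.

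Each proinsulin line was next compared with the non-transgenic discs by itself. Both comparisons use the same 4 control arrays, so their values are set side by side and their likeness is not a result. WT-6 had 7 calls (0.0682%), all lower, and WT-24 had 20 (0.195%), 11 higher (0.107%) and 9 lower (0.0877%). Arpc1 was called in both, at -0.81 in WT-6 (95% interval -1.07 to -0.54; limma adjusted p = 0.0427) and -0.84 in WT-24 (-1.10 to -0.57; 0.0269). Between the lines Arpc1 differed by -0.03, with a 95% interval of -0.29 to 0.24. Set against each other, WT-24 and WT-6 had 78 calls (0.760%), 45 higher (0.439%) and 33 lower (0.322%) in WT-24. The control arrays are not part of that difference, but they enter its estimate of the spread and its sex term. Without non-transgenic female replicate 1 the count was 68, and without non-transgenic female replicate 2 it was 98. The count of 78 was above the 7 and 20 of the lines against the controls, each from 4 arrays against 4.

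In WT-6 the named calls besides Arpc1 were pins, CtsF and CG13667. Pins encodes a partner of inscuteable, which orients the mitotic spindle in dividing neuroblasts. It was 2194, 2549, 2146 and 2106 in non-transgenic arrays, 1409, 1419, 1438 and 1320 in WT-6, and 2275, 2262, 2210 and 2246 in WT-24. All WT-6 arrays lay below all others, and the C96Y lines also had pins at 1985 to 2503. The difference was -0.68 ± 0.0545 (SE; limma adjusted p = 0.000574) against non-transgenic, and the call was made in 21 of 22 alternative settings. CtsF, a cathepsin F-like cysteine protease, was 3756 to 3993 in WT-6, 4634 to 5870 in non-transgenic and 5327 to 5785 in WT-24 arrays. It fell by 0.45 on the log2 scale in WT-6 (SE 0.0621, limma adjusted p = 0.0303). CG13667 was 666 to 718 in WT-6, 871 to 1067 in non-transgenic and 872 to 1027 in WT-24 arrays, a fall of -0.50 ± 0.0709 (limma adjusted p = 0.0303). Between the lines the differences of pins (0.69), CtsF (0.52) and CG13667 (0.49) in WT-24 minus WT-6 were also called. That comparison uses the same WT-6 arrays that named these genes, so it is not separate support. Against non-transgenic discs the other WT-6 calls were less stable than that of pins: Arpc1 was called in 9 of 22 settings (adjusted p up to 0.410), CtsF in 8 (up to 0.166) and CG13667 in 7 (up to 0.362).

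In WT-24 the largest named rises were nemy, Zip102B, fuss, wun and plum. Nemy rose by 0.64 ± 0.106 (SE; limma adjusted p = 0.0428), Zip102B by 0.62 ± 0.0839 (0.0269) and fuss by 0.59 ± 0.0870 (0.0269). Zip102B was 1588 to 1897 in non-transgenic, 1926 to 2579 in WT-6 and 2536 to 2867 in WT-24 arrays, so WT-6 lay between and overlapped WT-24, and the difference between the lines (0.31 ± 0.0839) was not called. The lipid phosphate phosphatase gene wun, which guides germ cell migration in the embryo, was 914 to 1079 in non-transgenic, 913 to 1173 in WT-6 and 1394 to 1637 in WT-24 arrays. It rose by 0.58 ± 0.0854 (limma adjusted p = 0.0269), with no overlap of WT-24 with the other groups. Plum, an immunoglobulin superfamily gene of neuronal remodelling, was 2990 to 3545 in non-transgenic, 2634 to 3233 in WT-6 and 4401 to 4941 in WT-24 arrays. It rose by 0.56 ± 0.0735 (limma adjusted p = 0.0269), and in the C96Y lines it was 4327 to 4708 in Mut-101 and 2701 to 2893 in Mut-1, so the high level was measured in 1 line of each transgene.

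The largest named falls in WT-24 besides Arpc1 were CG2145, Idh3g, Polr1E and noc. Idh3g, a subunit of mitochondrial isocitrate dehydrogenase, was 2034 to 2304 in non-transgenic, 2026 to 2299 in WT-6 and 1561 to 1771 in WT-24 arrays, and it fell by 0.39 on the log2 scale (SE 0.0586, limma adjusted p = 0.0296). Polr1E, a subunit of RNA polymerase I, was 1933 to 2243, 1948 to 2258 and 1523 to 1738 in the same order, and it fell by 0.38 (SE 0.0535, adjusted p = 0.0269). The zinc finger gene noc, needed for the ocelli of the adult head, was 4583 to 5170, 3973 to 4767 and 3441 to 3934, and fell by 0.38 (SE 0.0575, adjusted p = 0.0296). CG2145 was 2137 to 2928, 2186 to 2862 and 1735 to 2129 and fell by 0.39 (SE 0.0635, adjusted p = 0.0424). Over the 22 alternative settings the 10 genes named here for WT-24 were called in 5 (nemy, CG2145) to 14 (fuss) of them. The calls of WT-24 depended on single arrays: 0 were made without any 1 of its 4 arrays, and 1 was made without non-transgenic male replicate 2 and 1 without the 2 fat body arrays, one of which is of WT-24.

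**Figure D4:**
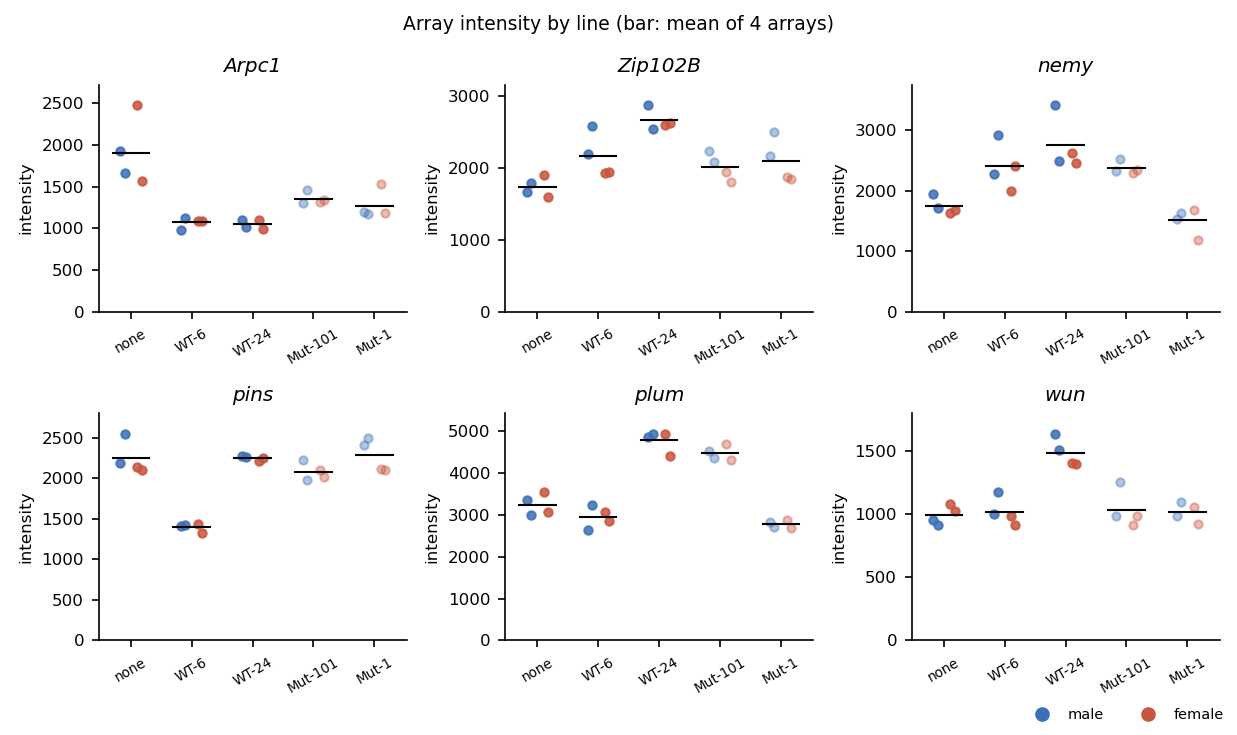
Intensity of 6 genes in each array by line, with males in blue and females in red, bars at the mean of 4 arrays, and the C96Y lines Mut-101 and Mut-1 in pale colours for reference. Arpc1 is lower in all proinsulin lines than without transgene, pins is low in WT-6 alone (1320 to 1438), and plum is high in WT-24 (4401 to 4941) and Mut-101.

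Sex was then taken from covariate to comparison. A test of whether the proinsulin difference depends on sex called 0 probe sets by limma, with 1152 (11.2%) at an unadjusted p under 0.05. At that p were 7 of 14 haemocyte, 3 of 5 fat body and 0 of 5 ring gland markers. So were 10 of 21 ecdysone response, 7 of 21 cell cycle and replication and 16 of the 105 secretory pathway genes. The count was 0 of 19 apoptosis, 0 of 26 proteasome and 0 of 56 respiratory chain genes. The part of other tissues in the sex dependence was not tested beyond leaving out the fat body arrays (1 call) and the covariates (0 calls). The smallest p was that of vis, whose difference was 2.08 log2 units smaller in males (-2.08 ± 0.270 SE; limma adjusted p = 0.0864). The differences within each sex, looked at after the data had been seen, rest on 4 wild-type against 2 non-transgenic arrays. In females 21 probe sets were called (0.205%), 9 higher (0.0877%) and 12 lower (0.117%), with 1006 (9.8%) at an unadjusted p under 0.05. In males 0 were called, with 885 (8.62%) at an unadjusted p under 0.05. Because the test of sex dependence made no call, the female calls are not shown to be absent from males.

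Of the 14 named female calls, vis and GstT3 had the smallest p. Vis rose by 2.58 ± 0.191 (SE; limma adjusted p = 0.000289) in females, a 5.99-fold difference, and stood at 0.50 ± 0.191 in males (adjusted p = 0.528). GstT3 rose by 1.13 ± 0.110 (adjusted p = 0.00254) in females and stood at 0.45 ± 0.110 in males (adjusted p = 0.517). Both female calls were made in every alternative setting that gave a value, 20 for vis and 21 for GstT3. In non-transgenic discs GstT3 was 0.58 log2 units higher in females than in males, against 1.35 in WT-6, 1.17 in WT-24, 1.27 in Mut-101 and 0.96 in Mut-1. The non-transgenic females were thus nearer to their males than was so in any of the transgenic lines.

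The other female calls were chosen after their values were seen. Tko, a protein of the mitochondrial ribosome, was 2525 and 2532 in non-transgenic females and 1849, 1577, 1656 and 1645 in wild-type females, a fall of -0.59 ± 0.0633 (SE; limma adjusted p = 0.00449). Its males were alike, at 2337 and 2283 without and 2194 to 2357 with proinsulin. SK, a calcium-activated potassium channel, was 750 and 850 in non-transgenic females, 333, 443, 369 and 285 in wild-type females, and 270 to 298 in males of all 3 lines. It fell by 1.18 on the log2 scale in females (SE 0.143, adjusted p = 0.0112). The other probe sets of SK gave smaller female differences, of -0.41, -0.45 and -0.04. Fbxl4, an F-box gene, was 848 and 763 in non-transgenic females against 1100 to 1220 in wild-type females, a rise of 0.52 ± 0.0729 (adjusted p = 0.0279), and stood at -0.06 in males.

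Smaller female rises were those of CG32645 (0.69), Alms1a (0.44), a relative of the human centrosomal gene ALMS1, Roe1 (0.43) and CG4593 (0.34). Falls were those of ImpL1 (-1.59), an ecdysone-inducible gene of imaginal discs, Arpc1 (-0.88), Snmp1 (-0.48), a membrane protein of pheromone-sensing neurons in the adult, CG43740 (-0.46) and ssx (-0.32). ImpL1 was 754 and 572 in the 2 non-transgenic females, of which the first had high spok (2538) and the second did not (60). In wild-type females ImpL1 was 197 to 249, also with spok high in 2 of these 4 arrays. The part of ring gland tissue in the ImpL1 values was not tested beyond the fit with spok and Lsp2 as covariates. Male values of the 14 genes lay between -0.76 (Arpc1) and 0.50 (vis). Of 20 or 21 alternative settings, these calls were made in 1 (Snmp1, CG43740), 2 (Roe1, CG4593), 3 (ssx), 4 (Arpc1, Alms1a), 5 (ImpL1) and 6 (CG32645), and those of Fbxl4, SK and tko in 11, 18 and 19. With spok and Lsp2 as covariates 4 female calls were made, and without the 2 fat body arrays 3.

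The C96Y females took no part in this choice, and they share the 2 non-transgenic females with it, so their values stand beside the others as levels. GstT3 was 2127 and 2017 in Mut-101 females and 2319 and 1536 in Mut-1 females. Tko was 1890 and 1768 in Mut-101 and 1801 and 2166 in Mut-1 females, SK was 415, 345, 241 and 262 in the same order, and Fbxl4 was 1272, 1394, 1160 and 1243. A deviation of the 2 non-transgenic arrays would enter both comparisons. The tko value of 2166 lay between the wild-type and the non-transgenic females.

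**Figure D5:**
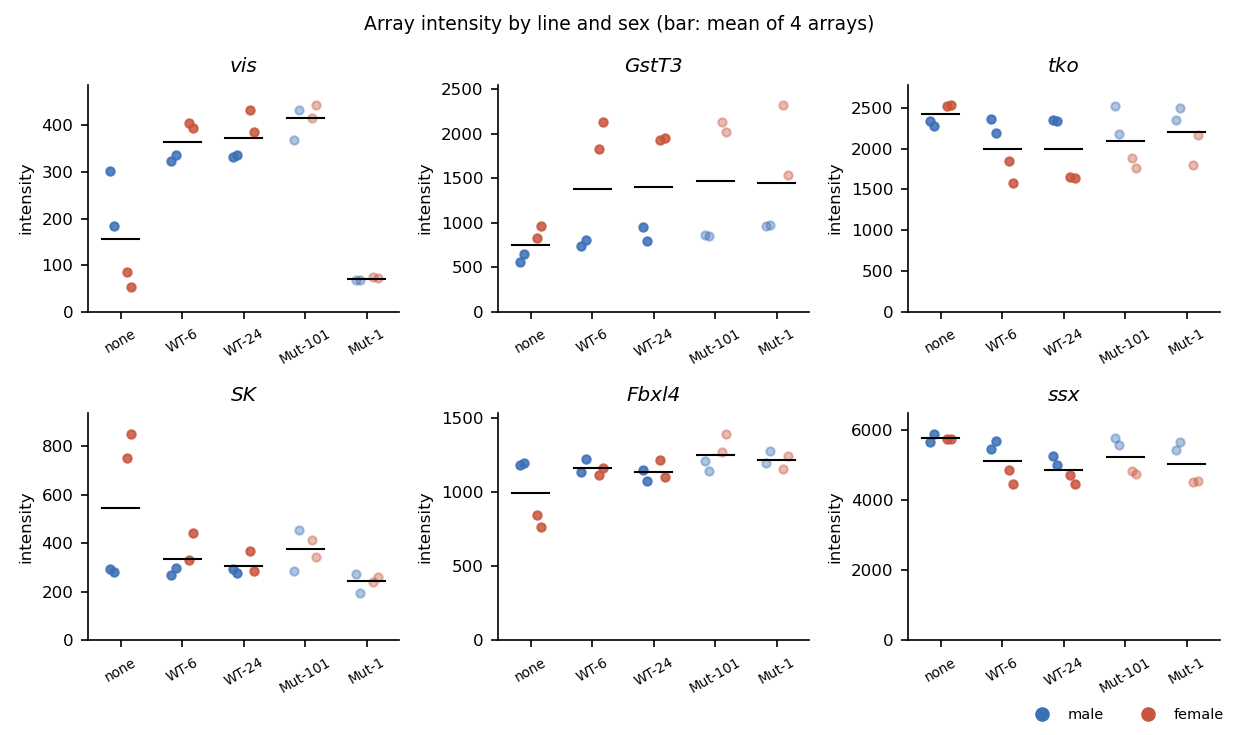
Intensity of 6 genes called in females, plotted for each array by line, with males in blue and females in red and bars at the mean of 4 arrays. GstT3 in females is 828 and 964 without transgene and 1536 to 2319 in the proinsulin lines, and vis is low in Mut-1 (67 to 75).

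By position, 9 of the 14 named female calls were on the X chromosome: GstT3, tko, SK, Fbxl4, CG32645, CG4593, CG43740, Alms1a and ssx. The X held 1359 of the 7971 tested probe sets with a gene on X, 2L, 2R, 3L, 3R or 4 (17.0%). At an unadjusted p under 0.05 the share in females was 13.5% on X, 5.87% on 2L, 7.92% on 2R, 6.51% on 3L and 6.60% on 3R. In males the shares were 10.2% on X and 8.49% to 9.06% on the same 4 arms. On chromosome 4, with 55 probe sets tested, the share was 10.9% in females and 10.9% in males, which is above that of X in males. The median female difference on X was 0.00 and the 9 calls were 5 higher and 4 lower, so the X-linked genes did not move in 1 direction. Of the list of dosage and sex determination genes, msl-2, a subunit of the dosage compensation complex, differed by 0.12 ± 0.0637 with both sexes pooled. Sxl, the switch gene of sex determination, differed by 0.09 ± 0.0406 in the same way, and neither was called. Other probe sets of Sxl stood at 0.08 and -0.01. In the test of sex dependence 3 of the 13 genes of this list had an unadjusted p under 0.05, beside 11.2% of all probe sets. Between the lines WT-24 and WT-6 the positions differed from this: of 64 named calls 29 were on 3R, 22 on 3L, 10 on 2L, 2 on 2R and 1 on X, while 3R and 3L held 24.5% and 19.3% of the tested genes.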

How the data were processed

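The authors' deposited values are linear intensities, 1 per probe set and array, for total RNA that was amplified and biotin-labelled per the labels' protocols. The submitters' processing notes name MAS5 without version or settings, and no scan date, detection call or background level was used. Intensities were taken to log2 with no pseudocount or further scaling. Control probe sets (183 of 18952) were left out. Genes come from the platform table (13647 probe sets with 1 gene, 402 with several, 4720 with none); 13544 matched a RefSeq table (Release 6 plus ISO1 MT), which also gave chromosomes. The probe set of highest mean stood for each gene, those with several genes or none were kept without a name, and the upper 60% of 17104 by mean over 20 arrays were tested (10262, lowest geometric mean 158). The main model in limma 3.58.1 (R 4.3.3) had transgene and sex over 12 arrays, eBayes with trend, two-sided tests and Benjamini-Hochberg adjustment over all 10262, with a call at an adjusted p under 0.05. Line comparisons used 1 mean per line plus sex, and the sex dependence an interaction term. Code was tested on simulated data.

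The number of arrays limits precision. Replicate numbers in the titles did not pair arrays (15 pairs, correlation of deviations -0.47 to 0.29). The genes compared and the gene lists were chosen with earlier results of these data known. Genes named are the calls of largest difference (for the main comparison, where a direction had none, the 5 of smallest p), up to 3 members per list by p, and 8 genes always (Hsc70-3, vis, GstT3, Arpc1, pins, ssx, Zip102B, fuss). Levels were never compared between genes.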

Additional observations from a re-analysis of the deposited data

Results flagged for a closer look

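Among 122 genes checked for 1 array far from the rest of its group, 12 gene and array combinations stood out of 244 tested; chance flags about 1 in 20 groups. Of these, 6 are fat body genes in the same 2 arrays. Non-transgenic male replicate 2 had Lsp2 at 12077 (next 960), Fbp1 at 9394 (next 138) and the lipid droplet gene Lsd-1 at 821 (next 373). WT-24 female replicate 1 had Lsp2 at 7750 (next 1515), Fbp1 at 5992 (next 231) and Lsd-1 at 515 (next 372). The cuticle gene Cpr67B was 880 in non-transgenic male replicate 2 (next 661). Non-transgenic male replicate 1 had Gadd45, a stress-inducible gene, at 414 (next 331) and Pvr at 1112 (next 1468). ND-75 was 4759 in non-transgenic female replicate 1 (next 4430), ox was 3597 in WT-6 female replicate 1 (next 3303), and the glial gene wrapper was 324 in WT-6 female replicate 2 (next 250).

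The difference from non-transgenic discs itself differed between the 2 wild-type lines for 8 of the named genes, as WT-24 minus WT-6 with limma adjusted p-values. It was 0.69 for pins (0.000541), 0.70 for plum (0.00246), 0.55 for wun (0.0115), 0.52 for CtsF (0.00340), 0.49 for CG13667 (0.00672), -0.39 for Polr1E (0.00479), -0.39 for Idh3g (0.00931) and -0.32 for CG2145 (0.0469). These genes were calls of WT-6 or WT-24 against non-transgenic discs, made with the same line arrays, so this is not separate support.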

How the results depend on the processing

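Counts of calls are given as adjusted p under 0.05, and no named gene called in a comparison as reported changed sign in any setting run. The pooled difference of pins, not called there, was called at -0.34 with all 20 arrays and at -0.68 without WT-24, and was 0.00 without WT-6. Against non-transgenic, wild-type proinsulin had 1 call; it had 11 with all 20 arrays and 1 mean per line and sex (5 higher, 6 lower), 2 with that model on the 12 arrays, 3 with line as a random block, 0 with line and sex means as the unit, 5 without WT-6, 2 without WT-24, 0 without a variance trend, 0 without the 2 fat body arrays and 0 with spok and Lsp2 as covariates, and 0 to 2 with 1 array left out. Without the 6 ring gland arrays it had 1 call, higher and not Arpc1. WT-6 had 7 calls, all lower: 12 with no filter, 5 without the fat body arrays (3 higher, 2 lower), 15 with 20 arrays, 3 with covariates, and 2 to 8 with 1 array left out (2 to 4 without any array other than non-transgenic male replicate 1 or female replicate 1). WT-24 had 20: 13 after median centring (9 higher, 4 lower), 12 with no filter, 31 with 20 arrays, 1 without the fat body arrays, 5 with covariates, and 0 to 20 with 1 array left out (0 for each WT-24 array, 1 for non-transgenic male replicate 2, 7 for non-transgenic female replicate 1, 9 for WT-6 female replicate 1). WT-24 against WT-6 had 78, and 46 to 98 with 1 array left out. The sex interaction had 0: 3 with no filter, 1 without the fat body arrays, and 0 to 10 with 1 array left out, the highest without non-transgenic male replicate 1. Females had 21: 9 after median centring, 12 after quantile normalization, 12 with no filter, 12 with the upper 40%, 3 without the fat body arrays, 4 with covariates, and 4 to 19 with 1 array left out. Males had 0, and 0 to 27 with 1 array left out, 26 without non-transgenic male replicate 1 and 27 without WT-6 male replicate 1. The cause of these moves was not tested, other than that fewer arrays or probe sets enter some settings.

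With the title number as replicate block the counts were 0 for WT-24, 1 for the interaction and 6 for females. The description number as replicate block gave 0 for wild-type proinsulin, 0 for WT-6, 1 for WT-24, 1 for WT-24 against WT-6, 1 for the interaction, 4 for females and 23 for males. Deviations from the mean of each line and sex did not pair the arrays by either number. Such deviations cannot show a difference that follows line. The description numbers followed line in part: 1 to 3 in non-transgenic, 2 and 3 in WT-6 and 3 to 5 in WT-24 arrays. Line and this number can thus not be fully told apart, and what the number stands for is not known here. Settings with sex split, arrays left out for other tissues, or covariates were chosen after seeing the data.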

Other observations

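The 2 C96Y lines fell on different sides of the comparison for several genes. Vis was 369 to 444 in Mut-101, the range of the wild-type lines, and 67 to 75 in Mut-1, and nemy was 2294 to 2516 in Mut-101 and 1186 to 1686 in Mut-1, against 1638 to 1939 in non-transgenic and 1999 to 3411 in wild-type arrays. Shams, a xylosyltransferase gene of Notch that was called in WT-24 (0.53 ± 0.0695 SE), was 3796 to 4116 in WT-24 and 3348 to 3503 in Mut-101, against 2428 to 2882 over the arrays of WT-6 and Mut-1. Mmp2 was 1118 to 1181 in Mut-1, below every array of the other lines.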
